A study of Mus musculus with 8 samples.

Results

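The genes described here control the release of fatty acids from stored fat in white adipose tissue, and the protein coat of the lipid droplet that holds that fat. The set lists 10 genes by symbol: Pnpla2, Lipe, Mgll, Abhd5, Plin1, Plin4, Cidec, G0s2, Adrb3 and Ptger3. Every probe set whose deposited gene symbol is one of these was taken, which gave 18 probe sets for 9 of the 10 genes, out of 20743 genes named on the array. Plin1 had no probe set under that symbol and was not analysed here. The rule uses the gene symbol and no measured value, but the list was drawn up with earlier results of these data known.

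The arrays measured total RNA from abdominal white adipose tissue of adult mice fed chow, in 4 groups of sex and genotype. The wild type mice were B10.D2 (Rsl/Rsl) and the rsl mice were B10.D2.PL (rsl/rsl), homozygous for null alleles of the Regulator of sex-limitation (Rsl) genes, which code for KRAB zinc finger repressors known from the liver for restraining sex-biased genes. Other genetic differences between the strains are not given in the sources used here. A group had 2 arrays, and each array carried a pool of RNA from 5 mice. Whether any mouse went into both pools of its group is not given in the sources used here, and the p-values reflect no more than the spread of such pools. The comparisons ask how genotype acts within each sex and how the sexes differ within each genotype. One label field of the arrays names liver RNA, whereas the tissue field and the series design name adipose tissue.

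In an adipocyte, triglyceride is broken down by lipases acting in order at the droplet surface: adipose triglyceride lipase (Pnpla2) removes the first fatty acid, hormone-sensitive lipase (Lipe) the next, and monoglyceride lipase (Mgll) the last. Pnpla2 is switched on by its coactivator CGI-58 (Abhd5) and held back by the inhibitor protein of G0s2. Catecholamines start the process through the beta-3 adrenergic receptor (Adrb3), which raises cyclic AMP, and prostaglandin E2 opposes it through the receptor EP3 (Ptger3), which lowers cyclic AMP. Perilipins (Plin1, Plin4) coat the droplet, and Cidec lets small droplets feed into large ones.

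Signals are log2 values, so that 1 unit is a 2-fold difference, and every array had a median between 4.54 and 4.58. The non-specific background of an array, the highest of 22 control probe sets, lay between 3.73 and 4.01. None of the 18 adipocyte markers stayed at or below it in all male pools or in all female pools. Their means were 11.62 and 11.66 (wild type males), 11.84 and 11.82 (wild type females), 11.12 and 11.59 (rsl males) and 11.86 and 11.85 (rsl females). The first rsl male pool was therefore the lowest for adipocyte RNA. Markers of other tissues also differed. The 11 measured epididymis markers had means of 12.07 and 11.58 for rsl males against 7.84 and 5.22 for wild type males, and of 3.89 to 4.12 for females. Skeletal muscle markers (14) had means of 4.55 to 4.69 for males and 5.62 to 7.67 for females. Liver markers (8) stood at 5.25 and 6.23 for wild type males and 4.03 to 4.48 elsewhere, and testis and sperm markers (12) at 4.77 to 6.54 for males and 3.82 to 3.86 for females. The part of these tissues in the differences below was not tested. In such bulk RNA, fewer adipocytes and less RNA per adipocyte cannot be told apart.

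Ptger3 was the member that differed by far more than its pools varied, and it was the only one of the 9 measured members that passed the test between genotypes. It was lower in rsl than in wild type males and lower in males than in females of either genotype. In rsl mice, Abhd5 and G0s2 were lower in males as well. The lipases Pnpla2, Lipe and Mgll, the droplet proteins Plin4 and Cidec, and Adrb3 passed the test in no comparison. A gene was read by its brightest probe set and called at a Benjamini-Hochberg adjusted p under 0.05 over 45037 probe sets (limma).

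By comparison, the calls among the members stood as follows, each beside the share of all named genes called. Between rsl and wild type males 1 of 9 members fell, against 1.77% of all genes. Between rsl and wild type females limma called 0 of 9, against 0.27% of all genes. At an unadjusted p under 0.05 there were 0 of 9 members and 11.4% of all genes. Averaged over sex 1 of 9 fell, against 1.51%. Between males and females 1 of 9 was called in wild type mice, against 5.22%, and 3 of 9 in rsl mice, against 15.6%. The interaction, which asks whether the genotype difference in males differs from that in females, gave 0 of 9 calls in limma, against 0.101% of all genes. At an unadjusted p under 0.05 it gave 2 of 9 members and 12.8% of all genes.

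**Figure D1:**
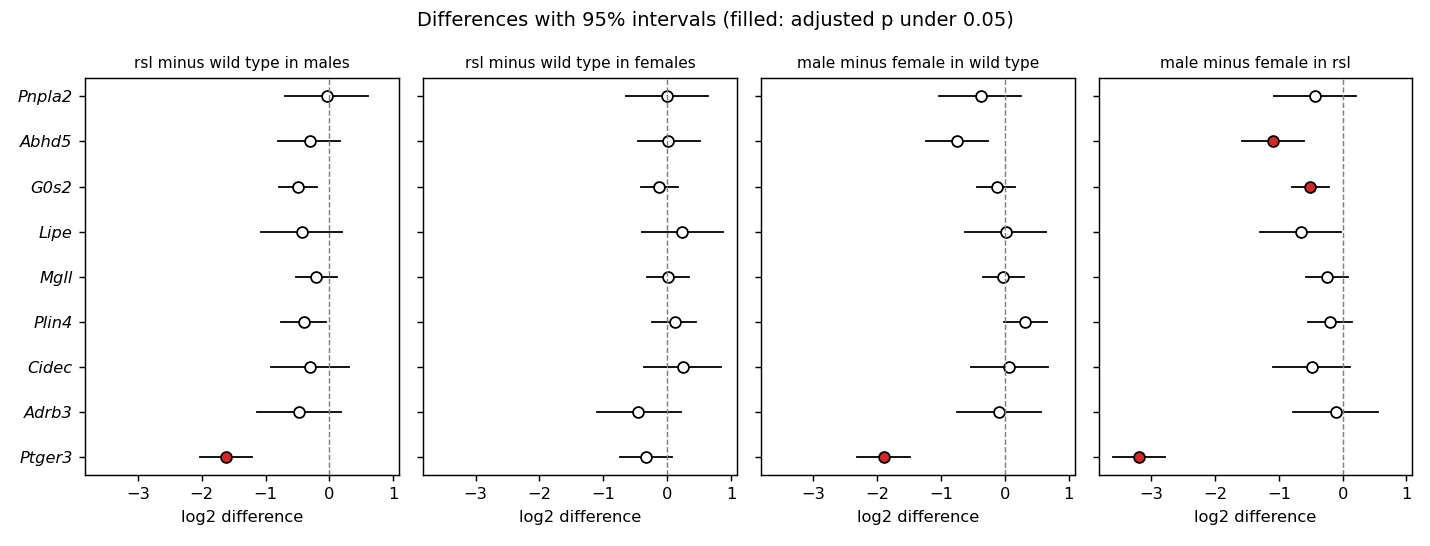
Differences of the 9 measured members on the log2 scale (horizontal axis) in 4 comparisons, 1 panel each, with the limma estimate as a circle and its 95% interval as a line; filled circles passed an adjusted p of 0.05. Ptger3 is filled in 3 of the 4 panels, and Abhd5 and G0s2 are filled in the comparison of rsl males with rsl females.

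Ptger3 (GRCm38.p6 chr3:157566821-157644758) measured, by its brighter probe set 1450344_PM_a_at, 8.90 and 8.49 (wild type males) and 6.86 and 7.29 (rsl males). The female pools measured 10.55 and 10.64 (wild type) and 10.27 and 10.26 (rsl). No pool of one group overlapped another, and the order from low to high was rsl males, wild type males, rsl females and wild type females. The signal was above background in all 8 arrays, by up to 6.77 log2 units. In males the rsl group was lower by a log2 difference of -1.62 ± 0.17 (SE; n = 2 and 2), with a 95% interval from -2.03 to -1.21, which is 3.07-fold lower (adjusted p = 0.0163). The call came from the spread that all 4 groups share: without any 1 of the 4 female arrays the adjusted p was 0.0808 to 0.0818, and in a fit of the male arrays alone it was 0.379 at the same difference.

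In females the Ptger3 difference between genotypes was -0.33 ± 0.17, with an interval from -0.74 to 0.08 (adjusted p = 0.544), so rsl and wild type females, neighbours in the order, were not told apart by the test although their pools did not overlap. Averaged over sex, rsl pools were 1.96-fold lower (-0.97 ± 0.12, adjusted p = 0.0246), a call that was lost without any 1 female array (adjusted p 0.143 to 0.169). The genotype difference in males exceeded that in females by -1.29 ± 0.25, with an interval from -1.87 to -0.71 and an unadjusted p of 0.00121. This interaction did not pass over all probe sets (adjusted p = 0.169), so a difference of effect between the sexes was not established. Without the second rsl male pool the interaction was -1.51, but there the first pool stands alone and is assumed to vary like the other groups.

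Between the sexes, Ptger3 was 3.74-fold lower in wild type males than in wild type females (-1.90 ± 0.17, adjusted p = 0.00346). In rsl mice the male pools were 9.13-fold lower than the female pools (-3.19 ± 0.17, interval -3.60 to -2.78, adjusted p = 0.000387). The rsl call held without each of the 8 arrays in turn, with an adjusted p between 0.000107 and 0.0129. The wild type call was lost without the second wild type female pool (adjusted p = 0.0613).

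The level of Ptger3 relative to other adipocyte transcripts followed the same order. Minus the mean of the 18 adipocyte markers on the same array, Ptger3 lay at -2.73 and -3.17 (wild type males), -4.27 and -4.30 (rsl males), -1.29 and -1.19 (wild type females) and -1.59 (both rsl female pools). Centring the arrays on those markers raised the median of all genes by 0.28 in the comparison of male genotypes and by 0.47 in that of rsl males with rsl females. The share of all genes called was then 3.49% between male genotypes, 5.31% between wild type sexes and 42.3% between rsl sexes. On that scale Ptger3 was still lower in rsl than in wild type males (-1.34, adjusted p = 0.000365) and lower in males than in females (-1.71 in wild type and -2.69 in rsl mice).

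The other Ptger3 probe set, 1425251_PM_at, was dim, with 3.85 to 4.84 over the arrays and above background in 7 of 8. It gave -0.21 ± 0.15 between male genotypes, -0.52 ± 0.15 between wild type sexes (adjusted p = 0.136) and -0.42 ± 0.15 between rsl sexes (adjusted p = 0.128). All were negative, like those of the brighter set, but smaller, and none passed. Between female genotypes it gave -0.31 ± 0.15 (limma adjusted p = 0.519), close to the -0.33 of the brighter set. Its interaction was 0.10 ± 0.22, so the dim set did not show a larger genotype difference in males. With both probe sets averaged, the difference between male genotypes was -0.91, the average over sex was -0.62, and the sex differences were -1.21 in wild type and -1.80 in rsl mice, all past the threshold. Where the probes lie in the transcripts is not given in the sources used here.

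**Figure D2:**
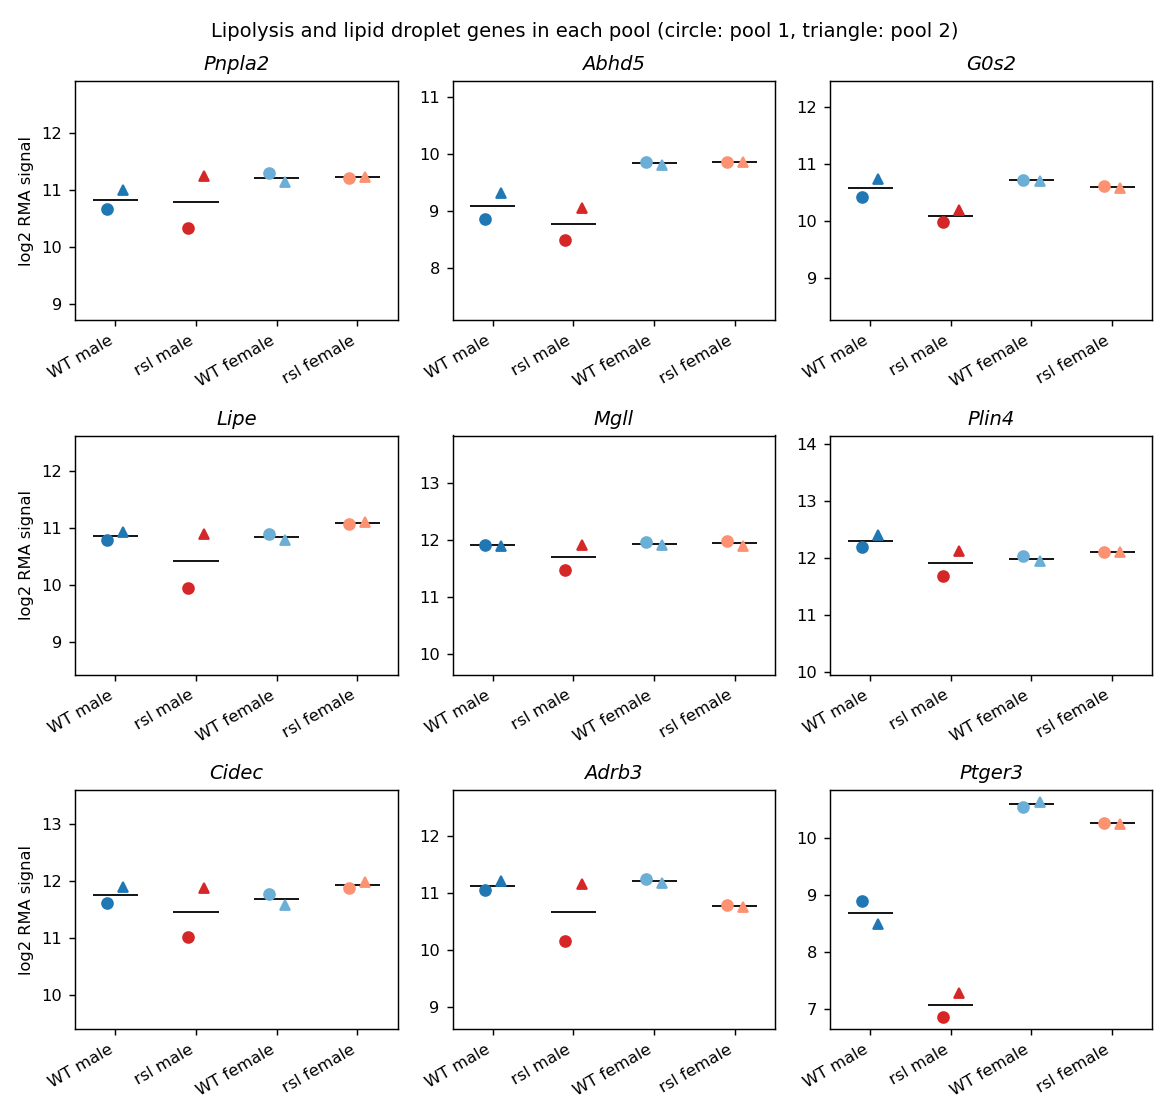
Signal (log2 RMA, vertical axis) of the brightest probe set of each of the 9 measured members in each pool, with circles for the first pool of a group, triangles for the second and a line at the group mean; panels differ in their offset but share 1 span. Ptger3 separates all 4 groups, Abhd5 separates males from females, and in every panel the first rsl male pool lies lowest.

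Adrb3 (chr8:27225776-27230845), the receptor with the opposite action, measured 11.06 and 11.21 (wild type males), 10.17 and 11.17 (rsl males), 11.26 and 11.19 (wild type females) and 10.80 and 10.76 (rsl females). The first rsl male pool lay a full unit below the second, while both rsl female pools lay below both wild type female pools. Its difference was -0.47 ± 0.28 between male genotypes (adjusted p = 0.391) and -0.45 ± 0.28 between female genotypes (interval -1.10 to 0.21, adjusted p = 0.611). A fit of the 4 female arrays alone, with the smaller spread of those pools, called the female difference (adjusted p = 0.0203). The dimmer probe set, 1421555_PM_at, measured 6.86 and 7.31 (wild type males), 5.98 and 7.06 (rsl males), 7.36 and 7.44 (wild type females) and 6.61 and 6.92 (rsl females). Both probe sets thus had rsl female pools below the wild type ones, by -0.63 ± 0.33 for the dimmer set (adjusted p = 0.539). Relative to the adipocyte markers Adrb3 lay at -1.06 and -1.08 in rsl females and at -0.58 and -0.63 in wild type females.

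Between male and female rsl mice Adrb3 differed by -0.11 ± 0.28 (adjusted p = 0.842). Without the first rsl male pool the same difference was 0.39 (adjusted p = 0.0675), so its sign rested on that pool.

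Abhd5 (chr9:122351616-122381524), the coactivator of Pnpla2, measured 8.85 and 9.31 (wild type males), 8.49 and 9.05 (rsl males), 9.86 and 9.81 (wild type females) and 9.86 and 9.85 (rsl females) by the probe set 1417565_PM_at. All male pools lay below all female pools, and the female pools lay close together. In rsl mice males were 2.12-fold lower (-1.09 ± 0.21, adjusted p = 0.0198), and the probe set 1417566_PM_at gave -1.07 ± 0.19 (adjusted p = 0.0155). The call was lost without any 1 of the female arrays and with the 4 rsl arrays alone (adjusted p = 0.0565). With the arrays centred on adipocyte markers Abhd5 was still called (-0.59, adjusted p = 0.0328), but 42.3% of all genes were called there, against 15.6% without centring. In wild type mice the male difference was -0.75 ± 0.21 by the first probe set (adjusted p = 0.111) and -0.26 ± 0.19 by the other, so these probe sets disagreed in size there. Between genotypes Abhd5 gave -0.31 ± 0.21 in males (adjusted p = 0.442) and 0.02 ± 0.21 in females. A dim probe set, 1447548_PM_at, stayed below background in all 8 arrays (3.24 to 3.52) and gives no level.

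G0s2 (chr1:193272160-193273188), the inhibitor of Pnpla2, measured 10.42 and 10.74 (wild type males), 9.98 and 10.20 (rsl males), 10.73 and 10.70 (wild type females) and 10.61 and 10.58 (rsl females). The rsl male pools were the 2 lowest of the 8. In rsl mice males were 1.42-fold lower than females (-0.51 ± 0.12, adjusted p = 0.0417). That call was lost without any 1 female array (adjusted p 0.0891 to 0.175), without the first rsl male pool (0.15), with array weights (0.0534) and with the rsl arrays alone (0.0741). Centred on the adipocyte markers the difference was -0.01 (adjusted p = 0.963), so the G0s2 difference between the rsl sexes was close to that of the markers. Between male genotypes the difference was -0.49 ± 0.12 with pools that did not overlap, and it did not pass (adjusted p = 0.0987).

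Pnpla2 (chr7:141455188-141460743), the lipase that Abhd5 and G0s2 act on, measured 10.67 and 10.99 (wild type males), 10.33 and 11.25 (rsl males), 11.29 and 11.14 (wild type females) and 11.21 and 11.23 (rsl females). The rsl male pools spanned both ends of that range, the lowest of the 8 and nearly the highest. Its genotype differences were -0.04 ± 0.27 in males (interval -0.69 to 0.60) and 0.00 ± 0.27 in females (interval -0.64 to 0.64), and its sex differences were -0.38 ± 0.27 in wild type and -0.43 ± 0.27 in rsl mice. These intervals are wide beside the differences. A dim probe set, 1428591_PM_at, lay between 4.31 and 5.38.

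The stretch upstream of the 3 called members is shown because Ptger3, Abhd5 and G0s2 were lower together in rsl males than in rsl females and because cyclic AMP, the messenger that Adrb3 and Ptger3 control, acts on genes through factors that bind TGACG. Each line gives the 250 bases before the transcript start in the RefSeq table (GRCm38.p6), 5' to 3' on the gene's strand, and capitals mark TGACG read on either strand (CGTCA is its reverse). The windows are chr3:157566626-157566875 (plus strand), chr9:122351366-122351615 (plus) and chr1:193273189-193273438 (minus); the start used for Ptger3 lies inside the annotated gene.
Ptger3: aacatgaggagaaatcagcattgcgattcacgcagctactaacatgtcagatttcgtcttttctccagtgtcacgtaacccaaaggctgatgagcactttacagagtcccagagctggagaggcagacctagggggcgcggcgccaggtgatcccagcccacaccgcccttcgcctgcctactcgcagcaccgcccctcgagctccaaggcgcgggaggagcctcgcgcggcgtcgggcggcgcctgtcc
Abhd5: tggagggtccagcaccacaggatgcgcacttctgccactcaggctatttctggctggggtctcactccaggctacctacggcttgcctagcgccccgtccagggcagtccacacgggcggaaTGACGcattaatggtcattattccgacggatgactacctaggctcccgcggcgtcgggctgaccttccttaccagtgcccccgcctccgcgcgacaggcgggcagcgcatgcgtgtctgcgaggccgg
G0s2: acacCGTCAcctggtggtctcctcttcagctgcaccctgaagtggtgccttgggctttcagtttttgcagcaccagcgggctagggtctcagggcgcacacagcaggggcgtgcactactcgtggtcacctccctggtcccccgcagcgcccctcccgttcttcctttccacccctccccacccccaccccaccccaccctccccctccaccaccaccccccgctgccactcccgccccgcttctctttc
The Abhd5 and G0s2 windows each hold 1 TGACG and the Ptger3 window holds 0. Their GC content is 62.0% for Ptger3, 64.8% for Abhd5 and 67.2% for G0s2. RefSeq windows were given for 8 of the 9 measured members, 11 in all, and TGACG lies in 2 of the 11, against 17.8% of 32851 windows of the same length. The full cyclic AMP element TGACGTCA, which contains TGACG, lies in 0 of 11 (1.55% of all windows). The steroid receptor core AGAACA lies in 1 of 11, that of Mgll (16.1% of all windows). These are matches of letters on either strand in short windows and show no binding.

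Lipe (chr7:25379527-25398486), which cuts diglyceride, measured 10.79 and 10.92 (wild type males), 9.94 and 10.90 (rsl males), 10.90 and 10.79 (wild type females) and 11.06 and 11.10 (rsl females). All pools but the first rsl male pool lay close together, and the rsl female pools were the highest. The differences were -0.43 ± 0.27 between male genotypes (adjusted p = 0.406), 0.24 ± 0.27 between female genotypes and -0.66 ± 0.27 between rsl sexes (adjusted p = 0.164). Its other probe set, 1432180_PM_at, was below background on every array (3.13 to 3.38).

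Mgll (chr6:88724412-88828360), which finishes the breakdown and also degrades an endocannabinoid, was even across the groups. Its brightest probe set, 1426785_PM_s_at, measured 11.91 and 11.90 (wild type males), 11.48 and 11.92 (rsl males), 11.96 and 11.91 (wild type females) and 11.99 and 11.90 (rsl females). The first rsl male pool was the exception, as for Lipe. The suffix s marks probes that can match several transcripts. The genotype differences were -0.21 ± 0.14 in males (adjusted p = 0.442) and 0.01 ± 0.14 in females. The probe sets of Mgll disagreed in size: 1453836_PM_a_at gave 10.80 and 10.89 in wild type males against 9.67 and 10.49 in rsl males, a difference of -0.77 ± 0.23 with pools that did not overlap (adjusted p = 0.137), and -0.85 ± 0.23 between rsl sexes (adjusted p = 0.0573). The dim set 1431331_PM_at had the opposite sign in males (0.40 ± 0.21, adjusted p = 0.341). In females, where the other Mgll probe sets differed by -0.03 to 0.03, it gave 5.28 and 5.38 in wild type females against 5.77 and 6.15 in rsl females (0.63 ± 0.21, adjusted p = 0.362).

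Plin4 (chr17:56100587-56109948), a perilipin of the droplet coat, measured 12.20 and 12.41 (wild type males), 11.69 and 12.12 (rsl males), 12.03 and 11.94 (wild type females) and 12.11 and 12.10 (rsl females). Its wild type male pools both exceeded the wild type female pools (0.32 ± 0.15), a difference that did not pass (adjusted p = 0.327). Both rsl male pools lay below both wild type male pools (-0.40 ± 0.15, adjusted p = 0.187). The interaction was -0.52 ± 0.21 (adjusted p = 0.425). Relative to the adipocyte markers, Plin4 stood at 0.52 to 0.76 in the 4 male pools and at 0.12 to 0.25 in the 4 female pools.

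Cidec (chr6:113424634-113435760), which enlarges droplets, measured 11.62 and 11.90 (wild type males), 11.02 and 11.88 (rsl males), 11.78 and 11.59 (wild type females) and 11.88 and 11.98 (rsl females). Both rsl female pools lay above the wild type female pools by 0.25 ± 0.26, which was within the spread (adjusted p = 0.779). The difference was -0.31 ± 0.26 between male genotypes (adjusted p = 0.549) and -0.48 ± 0.26 between rsl sexes (adjusted p = 0.281).

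By the median over the members, the 2 rsl male pools lay further apart than the pools of any other group. All 9 were lowest of all 8 arrays in the first rsl male pool, and all 9 were lower there than in the second rsl male pool, by a median of -0.56 and at the least by -0.22. Over all genes the median difference between these pools was 0.01, with 47.0% lower. In wild type males 7 of 9 members were lower in the first pool (median -0.22, from -0.47 to 0.41), while the median was 0.07 between wild type female pools and 0.01 between rsl female pools. The mean of the 9 members was 9.99 and 10.64 (rsl males), 10.71 and 10.88 (wild type males), 11.15 and 11.08 (wild type females) and 11.09 (both rsl female pools). Without Ptger3 it was 10.39 and 11.06 (rsl males), 10.94 and 11.17 (wild type males), 11.23 and 11.13 (wild type females) and 11.19 (both rsl female pools), so that the second rsl male pool then lay close to the other groups. The adipocyte markers showed the same low pool (11.12 against 11.59), and so did the 8 endothelium markers (6.65 against 7.69). The signal difference between the 3' and 5' probe sets of Gapdh, a measure of RNA integrity, was 0.79 and 1.03 (rsl males), 0.68 and 0.71 (wild type males) and 0.50 to 0.72 (females), and that of actin was 1.16 and 1.20 (rsl males), 1.06 and 0.95 (wild type males) and 0.88 to 1.09 (females). Both were highest in rsl males, and neither was larger in the low pool than in the other rsl male pool.

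**Figure D3:**
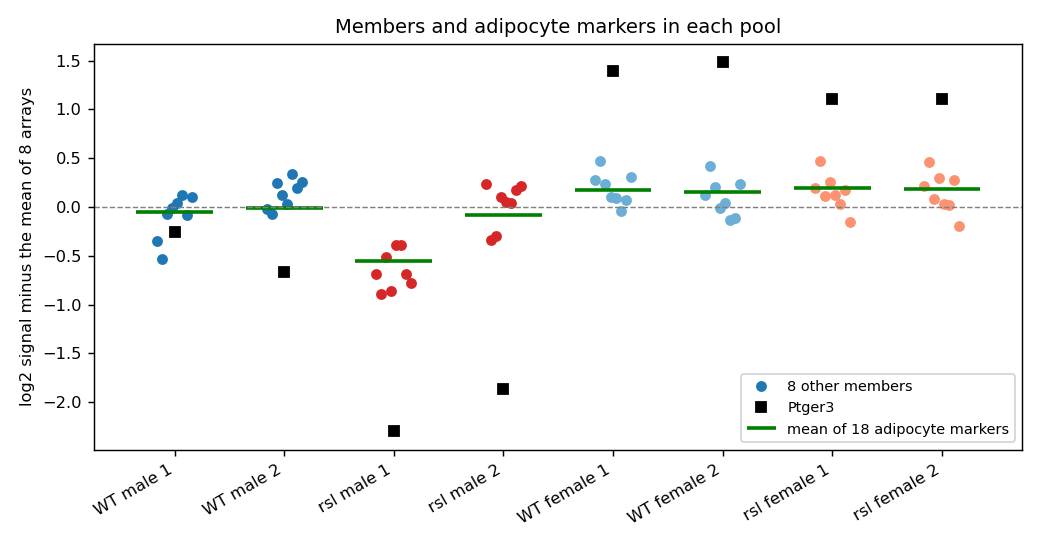
Signal of each member minus its own mean over the 8 arrays (log2, vertical axis) in each pool, with Ptger3 as a black square, the other 8 members as dots and the mean of 18 adipocyte markers as a green line. All members lie below 0 in the first rsl male pool, where the adipocyte markers are lowest too, and Ptger3 is low in both rsl male pools.

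Several signs in the male comparisons turned with this pool, some of them at differences near 0. Between male genotypes all 9 members had a negative difference (median -0.40, against -0.001 over all genes), and 3 of 9 (Ptger3, G0s2 and Plin4) had pools that did not overlap and lay lower in rsl, against 26.5% of all genes. Between rsl sexes all 9 were negative too (median -0.48, against -0.025), and 5 of 9 (Ptger3, Abhd5, G0s2, Lipe and Cidec) did not overlap, against 33.3% of all genes. Without the first rsl male pool the difference between male genotypes was still -1.40 for Ptger3 (adjusted p = 0.0177) and -0.38 for G0s2, but 0.42 for Pnpla2, 0.12 for Cidec, 0.04 for Lipe, 0.03 for Adrb3 and 0.01 for Mgll. Between rsl sexes it was then -2.97 for Ptger3 and -0.81 for Abhd5 (adjusted p = 0.0446), and turned positive for Adrb3 (0.39), Pnpla2 (0.03) and Plin4 (0.01), while the other members stayed negative. With the arrays centred on the adipocyte markers, Pnpla2 and Mgll turned positive between male genotypes, and Pnpla2, Mgll, Plin4, Cidec and Adrb3 turned positive between rsl sexes. Without the second rsl male pool 7 of 9 members were called between male genotypes, when 19.3% of all genes were, and all 9 between rsl sexes, when 27.6% of all genes were. Between female genotypes 3 of 9 were negative (median 0.01, against 0.016), and between wild type sexes 6 of 9 (median -0.09, against -0.004).

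Beyond the members, 63 measured genes of the same pathway were read from 3 lists: 25 receptors and signalling genes upstream of the lipases, 14 other lipases and their partners, and 24 other droplet proteins. Between male genotypes 0 rose and 2 fell, both from the droplet list (Mtarc1 and Tmem159), which is 3.17% of the 63 against 1.77% of all genes. Between female genotypes limma called 0 (0.27% of all genes), with 7 at an unadjusted p under 0.05, or 11.1% against 11.4% of all genes. Averaged over sex 0 rose and 2 fell (3.17% against 1.51%). In wild type mice 1 was higher and 4 were lower in males than in females, 7.94% against 5.22%. In rsl mice 2 were higher and 13 were lower in males, 23.8% against 15.6%. These were 1 and 4 of the signalling list, 0 and 2 of the lipase list, and 1 and 7 of the droplet list. The interaction gave 0 calls in limma (0.101% of all genes), with 13 at an unadjusted p under 0.05, or 20.6% against 12.8%. Fabp4, Lpl and Aqp7 of these lists also stand among the adipocyte markers, and Cidea among those of brown fat. Markers of other cells differed in the same comparisons. Between male genotypes 5 of 11 epididymis markers were higher in rsl, 3 of 8 liver and 3 of 12 testis and sperm markers were lower, while the 18 adipocyte markers had a median difference of -0.18 and none passed. In rsl males against rsl females 10 of 11 epididymis, 5 of 12 testis and sperm and 1 of 6 mesothelium markers were higher. Lower there were 6 of 18 adipocyte, 4 of 6 mesothelium, 4 of 6 brown and beige fat and 3 of 14 muscle markers. In wild type males against wild type females 9 of 12 testis and sperm, 2 of 8 liver and 1 of 6 mesothelium markers were higher. Lower there were 11 of 14 muscle, 3 of 6 mesothelium, 3 of 6 brown and beige fat and 1 of 18 adipocyte markers.

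Mtarc1, a reductase known mainly from the outer mitochondrial membrane, resembled Ptger3 in its order of groups. It measured 8.22 and 7.66 (wild type males), 5.59 and 5.75 (rsl males), 9.28 and 9.53 (wild type females) and 8.80 and 8.97 (rsl females). It fell by 2.27 ± 0.19 on the log2 scale between male genotypes (adjusted p = 0.00729), a call lost without either rsl female array (highest adjusted p 0.0525), with the male arrays alone (0.347) and with its probe sets averaged, where the difference was -1.26 (adjusted p = 0.0564). It was lower in males in both genotypes (-1.47 ± 0.19, adjusted p = 0.0114, and -3.21 ± 0.19, adjusted p = 0.000528). Tmem159, the seipin partner in droplet formation, measured 8.21 and 8.12 (wild type males), 7.72 and 7.55 (rsl males), 7.83 and 7.80 (wild type females) and 7.17 (both rsl female pools). It lay lower in rsl than in wild type pools of both sexes, and the average passed (-0.59 ± 0.06, adjusted p = 0.0124). The averaged call was kept in 4 of the 8 fits that leave out 1 array, and it was lost with centring on adipocyte markers (-0.46, adjusted p = 0.198) and with its probe sets averaged (-0.30, adjusted p = 0.0837). The male difference alone (-0.53 ± 0.08, adjusted p = 0.0423) passed in 2 of those 8 fits.

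Hcar2 and Adora1 are receptors that, like Ptger3, lower cyclic AMP. Hcar2, the niacin and hydroxybutyrate receptor, measured 6.25 and 6.27 (wild type males), 7.47 and 7.58 (wild type females), 6.40 and 6.68 (rsl males) and 7.30 and 7.57 (rsl females). The difference between the sexes was -1.26 ± 0.13 in wild type (adjusted p = 0.00475) and -0.90 ± 0.13 in rsl mice (adjusted p = 0.0085). Adora1, the adenosine A1 receptor, gave 5.68 and 6.08 in rsl males and 7.36 and 7.32 in rsl females (-1.46 ± 0.14, adjusted p = 0.00306), whereas the wild type pools of both sexes lay between 6.36 and 6.63.

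At most 8 passing pathway genes per comparison, those with the smallest p, are named. The 2 higher and 13 lower between rsl sexes are therefore not all listed, and the 1 signalling gene higher in rsl males is not named. Cidea, the relative of Cidec, measured 4.78 and 5.07 in wild type males against 7.05 and 7.40 in wild type females (-2.30 ± 0.24, adjusted p = 0.00587). In rsl mice it gave -2.56 ± 0.24 (adjusted p = 0.00274). Ddhd2, a lipase, was lower in males by -0.69 ± 0.12 in wild type and -0.86 ± 0.12 in rsl mice (adjusted p = 0.0301 and 0.00862). Abhd6, another monoglyceride lipase, gave 6.78 and 7.16 in rsl males against 8.05 and 8.01 in rsl females (-1.06 ± 0.14, adjusted p = 0.00664), and Fabp5, a fatty acid carrier, gave 9.26 and 10.18 against 10.91 and 10.94 (-1.20 ± 0.26, adjusted p = 0.0302). Tmem159 was higher in males in rsl mice (0.46 ± 0.08, adjusted p = 0.0173). Aadac, an esterase, was higher in males in wild type mice (1.11 ± 0.18, adjusted p = 0.0247). It was dim, with 4.89 and 5.37 in wild type males against 4.08 and 3.96 in wild type females. Those female values lay near the background of 3.73 to 4.01. Across the 8 fits that leave out 1 array, the rsl sex call was kept in 8 for Mtarc1, Cidea and Adora1, 7 for Hcar2, 6 for Abhd6 and Ddhd2, 5 for Tmem159 and 4 for Fabp5. The wild type sex call was kept in 6 for Hcar2, Cidea and Mtarc1, 3 for Aadac and 2 for Ddhd2. Centring on adipocyte markers ended the rsl calls of Hcar2 (-0.40, adjusted p = 0.0844) and Ddhd2 (-0.36, adjusted p = 0.103) and the wild type call of Ddhd2 (-0.50, adjusted p = 0.221). Averaging the probe sets ended the wild type call of Ddhd2 (-0.20, adjusted p = 0.261) and the rsl call of Tmem159 (0.18, adjusted p = 0.216), and the rsl arrays alone ended those of Tmem159 and Fabp5.

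**Figure D4:**
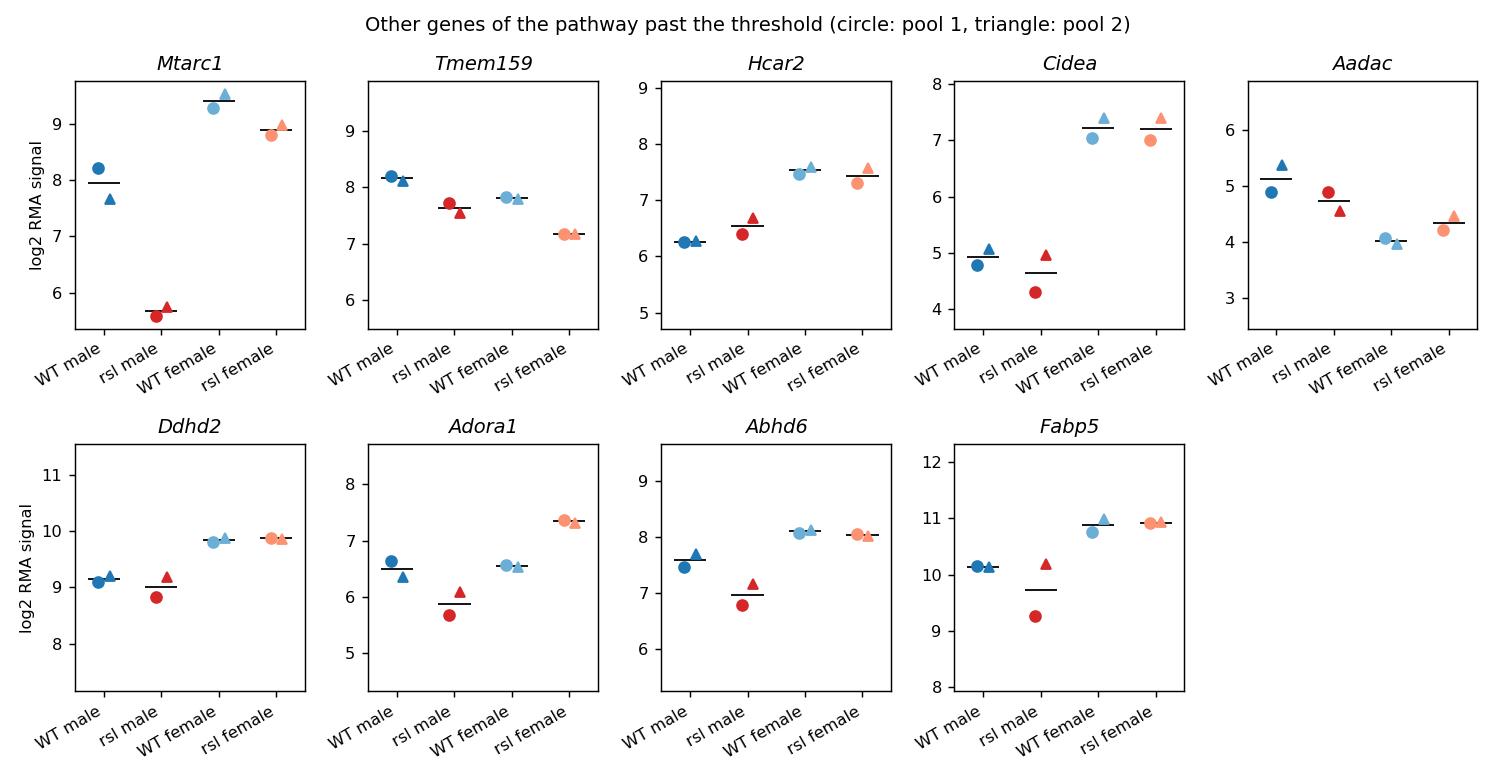
Signal (log2 RMA, vertical axis) of the 9 other pathway genes named in the text in each pool, with circles for the first pool of a group, triangles for the second and a line at the group mean. Mtarc1, Cidea, Hcar2 and Ddhd2 lie lower in male than in female pools of both genotypes, and Tmem159 lies lower in rsl than in wild type pools of both sexes.

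Among 6579 genes above background with an SD of at least 0.2 over the arrays, the profiles most like the mean of the 9 members across the 8 arrays were those of Heph (Pearson r = 0.997), Pon3 (0.996), Dhdh (0.995), Myo5a (0.994) and Amy1 (0.994). The correlation is a description over 8 arrays that share the groups and the low pool. Ptger3, with a range of 3.78, weighs more in that mean than the other members, whose ranges ran from 0.51 to 1.37. Heph, an iron oxidase, measured 9.30 and 9.53 (wild type males), 8.57 and 9.21 (rsl males), 9.73 and 9.71 (wild type females) and 9.65 and 9.70 (rsl females). Pon3, a paraoxonase, ranged from 7.65 in the first rsl male pool to 9.44 in a wild type female pool.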

How the data were processed

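Total RNA of 8 pools of 5 mice was labelled from 400 ng and hybridised to Affymetrix Mouse Genome 430 2.0 PM arrays, per the labels. The authors deposited 1 log2 signal for each probe set and array, summarised with RMA per the submitters' processing notes, which give no version. Gene symbols came from the authors' deposited annotation table, updated through RefSeq (GRCm38.p6): 34522 probe sets by accession, 924 by symbol, 177 by synonym, 2744 as deposited, and 6670 unnamed. Another 8 value columns in that table match no label and were not used. Of 45141 probe sets, 104 controls were set aside, and none was filtered. limma 3.58.1 (R 4.3.3) fitted 1 coefficient per group on all 8 arrays (4 residual and 3 prior degrees of freedom), with two-sided p-values adjusted by Benjamini-Hochberg over 45037 probe sets at a threshold of 0.05. The number of arrays limits the precision. A gene was read by its brightest probe set over all arrays. On simulated data for male genotypes, changes of 1 log2 unit were recovered in 79% of cases and those of 2 in 92%, with 8 false calls among 45037. For wild type sexes these were 66%, 99% and 4, and for rsl sexes 71%, 97% and 10. The simulation gave a probe set the same spread in every group. In the data Adrb3 had an SD of 0.71 in rsl males and 0.02 in rsl females, so these rates may not hold for the male pools. Same-numbered arrays correlated in their deviations at -0.048 to 0.346, so numbers were not taken as pairs. Members, marker and pathway lists, and the rule for named genes (all members, up to 8 passing pathway genes per comparison by smallest p, and 5 most similar genes) were chosen with earlier results of these data known. Alternatives covered the arrays fitted, a replicate block, the variance prior, a filter, normalization, probe set averaging, array weights and each array left out.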

Additional observations from a re-analysis of the deposited data

How the results depend on the processing

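The replicate block kept the number of members called, at 1, 0, 1, 1, 3 and 0 for male genotypes, female genotypes, their average, wild type sexes, rsl sexes and the interaction. The same-numbered arrays share only a number; over all genes the block moved the calls between male genotypes from 367 to 618. Over all settings run, the genes called ran from 0 to 4011 between male genotypes, 8 to 1120 between female genotypes, 29 to 3388 for their average, 93 to 2723 between wild type sexes, 354 to 8768 between rsl sexes and 4 to 1741 for the interaction. An intensity trend, the filter on dim probe sets, quantile normalization, median centring and probe set means also kept these counts of members. With only the groups compared, 0 members were called between male genotypes, against 0.0% of all genes. That setting called 1 between female genotypes (Adrb3), against 5.4%, and 1 between rsl sexes (Ptger3), against 5.69%. With array weights 2 were called between wild type sexes (Abhd5 and Ptger3), against 9.82% of all genes, and 2 between rsl sexes, against 13.2%. Centring on adipocyte markers also gave 2 between rsl sexes, against 42.3% of all genes. Leaving out 1 array at a time, the counts ran from 0 to 7 between male genotypes, 0 to 4 for the average, 0 to 2 between wild type sexes, 1 to 9 between rsl sexes and 0 to 4 for the interaction, and stayed at 0 between female genotypes. The highest counts came without the second rsl male pool, and for wild type sexes also without the first. In those fits a lone pool is assumed to vary like the other groups. The share of all genes called was higher there too than with all 8 arrays, so the rise was not confined to the members. An alternative added after the pools had been seen kept only the second pool of each male group. Both male groups are then single pools, and the spread comes from the female arrays only. Its calls say nothing about the spread of male pools. Its calls among the members are not counted here, while the ranges of genes over all settings include it. The difference of Adrb3 between rsl sexes turned from -0.11 to 0.39 in it, which is higher in males. The cause of these shifts was not tested. With 2 pools in each group, small differences were not detectable. The intervals are not adjusted for the number of probe sets, so a difference could miss the threshold although its interval left out 0. G0s2 between male genotypes was such a case (-0.49, interval -0.79 to -0.2, limma adjusted p = 0.0987).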
